A study of Homo sapiens with 10 samples.

Results

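The transcription factors that keep prostate epithelial cells in their luminal state were followed in the human 22RV1 line, an established model of prostate cancer that grows without androgen, after inhibition of splicing and transcription kinases. The set held 8 of the 31015 genes that the intervals were assigned to, namely FOXA1, GATA2, HOXB13, ONECUT2, SPDEF, EHF, ETV1 and GRHL2. They were chosen by name for their known part in the prostate lineage, with earlier results of these data known, and no measured value is part of the rule that names them.

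SLAM-seq libraries of 5 groups, with 2 libraries in each, were compared. Control cells received no drug, and the other groups were treated for 4 h with 20 µM SRPIN340, an inhibitor of the splicing kinase SRPK1, with 50 µM Endovion (SCO-101), with THZ531, an inhibitor of the elongation kinase CDK12, or with THZ531 and Endovion together, called the combination here. The dose of THZ531 is 100 nM in the methods and 150 nM in the description of the series. In all groups 4-thiouridine was present for the last 10 min, so that reads with a T>C conversion (T>C reads) come from nascent RNA, made during these minutes, and all reads of a gene together measure its total RNA. The cells came from 1 line, and the sources do not say whether the 2 libraries of a group came from separate cultures, so p-values measure the spread between these libraries, which may be technical. No library without 4-thiouridine was analysed here, so the T>C reads that arise without label were not measured. Where 2 libraries lie wholly above or below 2 others, an exact permutation p can be no smaller than 0.333. Such layouts are given below as description only.

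A lineage factor binds the enhancers of the genes that define a cell type, often together with partners that bind nearby. In luminal prostate cells FOXA1 and GATA2 are pioneer factors that open chromatin for other factors, and HOXB13 is a homeobox factor that binds many of the same enhancers. ETS factors and the grainyhead factor GRHL2 hold epithelial genes in an active state. Such factors are used as marks of luminal identity, which is partly lost in some treated prostate cancers.

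Libraries held 35517462 to 53592904 mapped reads, of which 1011591 to 1576102 were T>C reads on genes, or 5.04% to 5.70% of all reads on genes. The line showed its luminal identity: KRT18 was at 354 to 485 CPM (reads scaled to libraries of equal size) and KRT8 at 89.5 to 135 over the 10 libraries, while the androgen-regulated genes KLK3 (2.51 to 8.34 CPM) and TMPRSS2 (1.05 to 2.66 CPM) were low. KRT5 had 0 reads, KRT14 and TP63 had at most 5 and 3 reads in a library, and COL1A2, CD3E, VWF and CDH5 had 0 reads, so the basal, T cell and endothelial markers were at or near 0. Of the fibroblast markers, COL1A1 was at 1.62 to 3.27 CPM (40 to 83 reads in a library), and its part in the results was not tested. Of the neuroendocrine markers, SYP was at 21.4 to 26.3 CPM and CHGA, INSM1 and NCAM1 had at most 10 reads in a library. All 8 lineage factors passed the filters on low counts, which kept 9946 genes for nascent and 14689 for total RNA.

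The clearest result concerned HOXB13, whose total RNA fell 1.46-fold with Endovion, 1.92-fold with THZ531 and 2.38-fold with the combination, and whose nascent RNA fell 2.90-fold with the combination. SPDEF also lost total RNA in these 3 groups, by 1.50-fold to 1.69-fold. GRHL2 rose in total RNA with SRPIN340 (1.68-fold) and Endovion (1.58-fold), EHF fell with Endovion (1.84-fold), and with THZ531 the nascent RNA of FOXA1 rose 1.88-fold while that of ONECUT2 fell 1.53-fold. GATA2 and ETV1 passed the test in no comparison with control. Each gene was called at a Benjamini-Hochberg adjusted p under 0.05 over all genes tested, with edgeR's quasi-likelihood test.

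**Figure D1:**
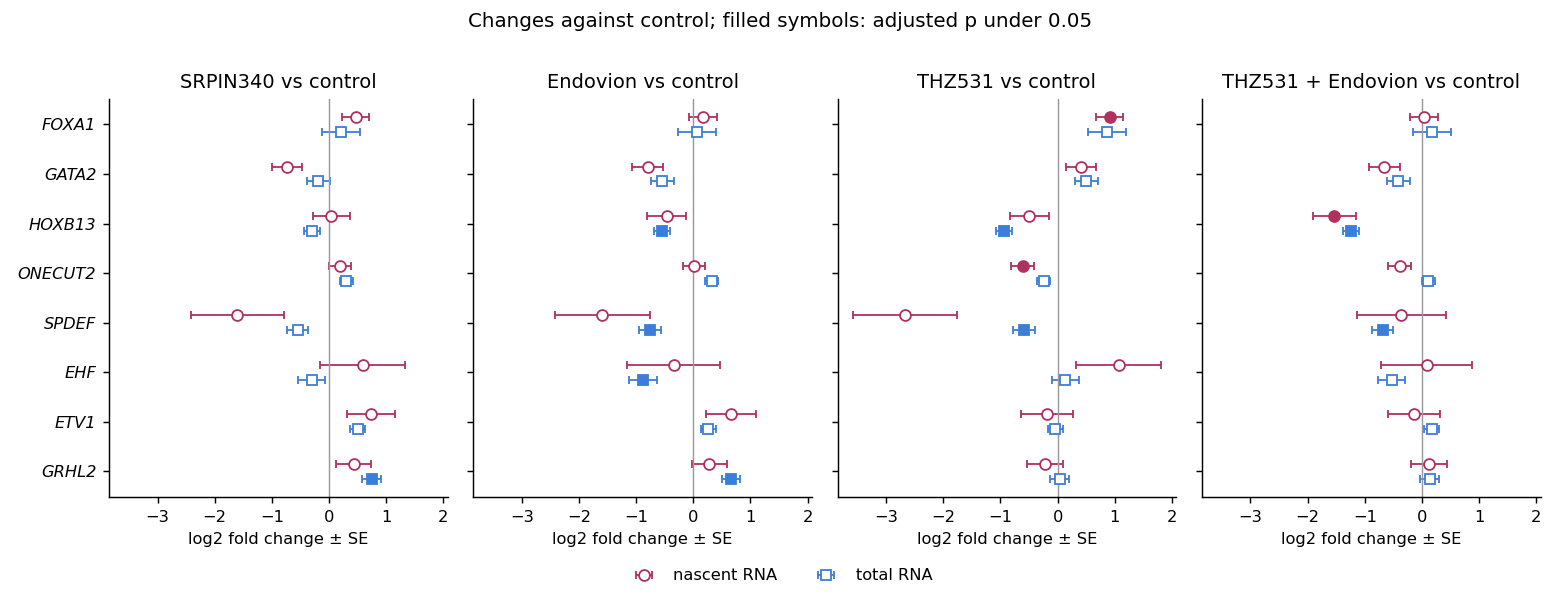
Log2 fold change against control with its standard error (x axis) for 8 lineage factors (y axis) in nascent (circles) and total RNA (squares), 1 panel per treatment. Filled symbols passed an adjusted p under 0.05: HOXB13 is filled in both kinds of RNA with the combination, and GATA2 and ETV1 are open throughout.

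For nascent RNA, 0 of the 8 factors were called with SRPIN340, where 1.04% of all genes were called, and 0 of 8 with Endovion, where 2.66% were. THZ531 gave 2 of 8 against 7.46% of all genes, and the combination gave 1 of 8 against 8.1%. At the threshold of the study's methods, a change of 1 or more on the log2 scale in either direction with an unadjusted p under 0.05, the counts were 0, 0, 1 and 1 of 8, against 4.66%, 6.49%, 12% and 11.3% of all genes. The factor counted there with THZ531 was SPDEF, and with the combination HOXB13. At an unadjusted p under 0.05 alone, 1 of 8 factors passed with SRPIN340 (10.4% of all genes) and 1 with Endovion (14.1%), GATA2 in both, 3 with THZ531 (21.2%) and 2 with the combination (21.4%). DESeq2 called 0 of 8 with SRPIN340 and 0 with Endovion.

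For total RNA, 1 of 8 factors was called with SRPIN340 (1.96% of all genes), 4 of 8 with Endovion (11.4%), 2 of 8 with THZ531 (30.7%) and 2 of 8 with the combination (29%). The shares with THZ531 and the combination were near those of all genes, and the count with SRPIN340 rested on 1 gene, GRHL2. The count with Endovion was 0 without control replicate 2 or Endovion replicate 2 and 1 without Endovion replicate 1. Their median log2 fold change in total RNA was 0.01, -0.24, 0.00 and -0.15 in the same order, beside 0.03, 0.02, -0.01 and 0.00 for all genes. In nascent RNA the medians were 0.31, -0.17, -0.20 and -0.25, beside -0.01, -0.01, -0.02 and -0.01. Calls of the factors in both directions occurred with Endovion (1 up, 3 down in total RNA) and THZ531 (1 up and 1 down in nascent RNA). Calls over all genes also went both ways there, with 1307 up and 373 down for Endovion and 384 up and 358 down for THZ531. The 4 comparisons share the control libraries, and in bulk samples fewer cells of a kind and less RNA per cell cannot be told apart.

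FOXA1 encodes a forkhead factor that opens chromatin at prostate enhancers. The gene is short, at chr14:37589552-37596059 on the minus strand of hg38 (6.51 kb, 2 exons). Its reads were counted in 1 interval of 1381 bp (chr14:37589984-37591364), which stops short of the 3′ end of that span. Reads of the gene beyond the interval were not counted. The promoter of the gene is shown because FOXA1 is the factor whose newly made RNA rose. The sequence covers the 250 bases before the RefSeq start (GRCh38.p14, chr14:37595250-37595499, minus strand, printed 5′ to 3′ towards the start), and the capitals mark a match to the short forkhead string TGTTTG, read on the opposite strand. This RefSeq start lies inside the gene span given above, which begins farther upstream, so the window falls within the span of the longer annotated gene.

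FOXA1: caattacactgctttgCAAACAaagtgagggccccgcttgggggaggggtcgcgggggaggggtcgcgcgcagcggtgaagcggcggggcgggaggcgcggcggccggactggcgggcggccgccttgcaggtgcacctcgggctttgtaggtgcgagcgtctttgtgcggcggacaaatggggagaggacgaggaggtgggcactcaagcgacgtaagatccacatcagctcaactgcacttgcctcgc

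This window is rich in G and C (67.2%, beside a median of 58.0% over 35116 promoters) and holds 26 CG pairs. Both strands were searched for TATAAA (in 10.7% of all promoter windows of the same length), CCAAT (32.0%), the forkhead strings TGTTTAC (2.98%) and TGTTTG (12.8%), the GATA string AGATAA (9.17%), the ETS string CCGGAAG (8.52%), the grainyhead string AACCGG (5.99%) and the HOXB13 string CCAATAAA (0.863%), which contains CCAAT. In the FOXA1 window only the short forkhead string was found, starting at base 17. A match describes letters, not a bound site.

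In nascent RNA, FOXA1 was at 83.7 and 103 T>C CPM (T>C reads scaled to an equal number of T>C reads) in control cells, 122 and 135 with SRPIN340, 97.4 and 112 with Endovion, 129.5 and 224 with THZ531 and 82.2 and 108 with the combination. Both libraries of THZ531 and of SRPIN340 lay above both control libraries, and the libraries of the other groups overlapped control. The rise with THZ531 was 0.91 ± 0.24 on the log2 scale (SE, adjusted p = 0.0083), and the value with SRPIN340 was 0.47 ± 0.23 (adjusted p = 0.48). The 2 THZ531 libraries differed widely, and the call depended on them: without THZ531 replicate 2 the change was 0.48 (adjusted p = 0.44), without control replicate 1 it was 0.78 (adjusted p = 0.087), and over the 10 fits that each left out 1 library the adjusted p ran from 0.0011 to 0.44. With overlapping intervals summed as they stand, the change was 0.91 with an adjusted p of 0.14.

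Total FOXA1 RNA was also highest with THZ531, with 98.4 and 112 CPM in control, 111 and 132 with SRPIN340, 114 and 107 with Endovion, 137 and 245 with THZ531, and 88.0 and 149.5 with the combination. The THZ531 libraries were the highest of all but again far apart, and the change of 0.86 ± 0.33 did not pass the test (adjusted p = 0.10, 95% interval 0.05 to 1.66). It passed without THZ531 replicate 1 (1.17, adjusted p = 0.010) and without combination replicate 2 (0.86, adjusted p = 0.043), and the adjusted p reached 0.48 over the fits that left out 1 library. The labelled share, the percentage of a gene's reads that carry T>C, was 4.71% and 4.80% in control and 5.36% and 4.82% with THZ531. The log2 change of the odds to be labelled was 0.10 ± 0.20 (adjusted p = 0.93).

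**Figure D2:**
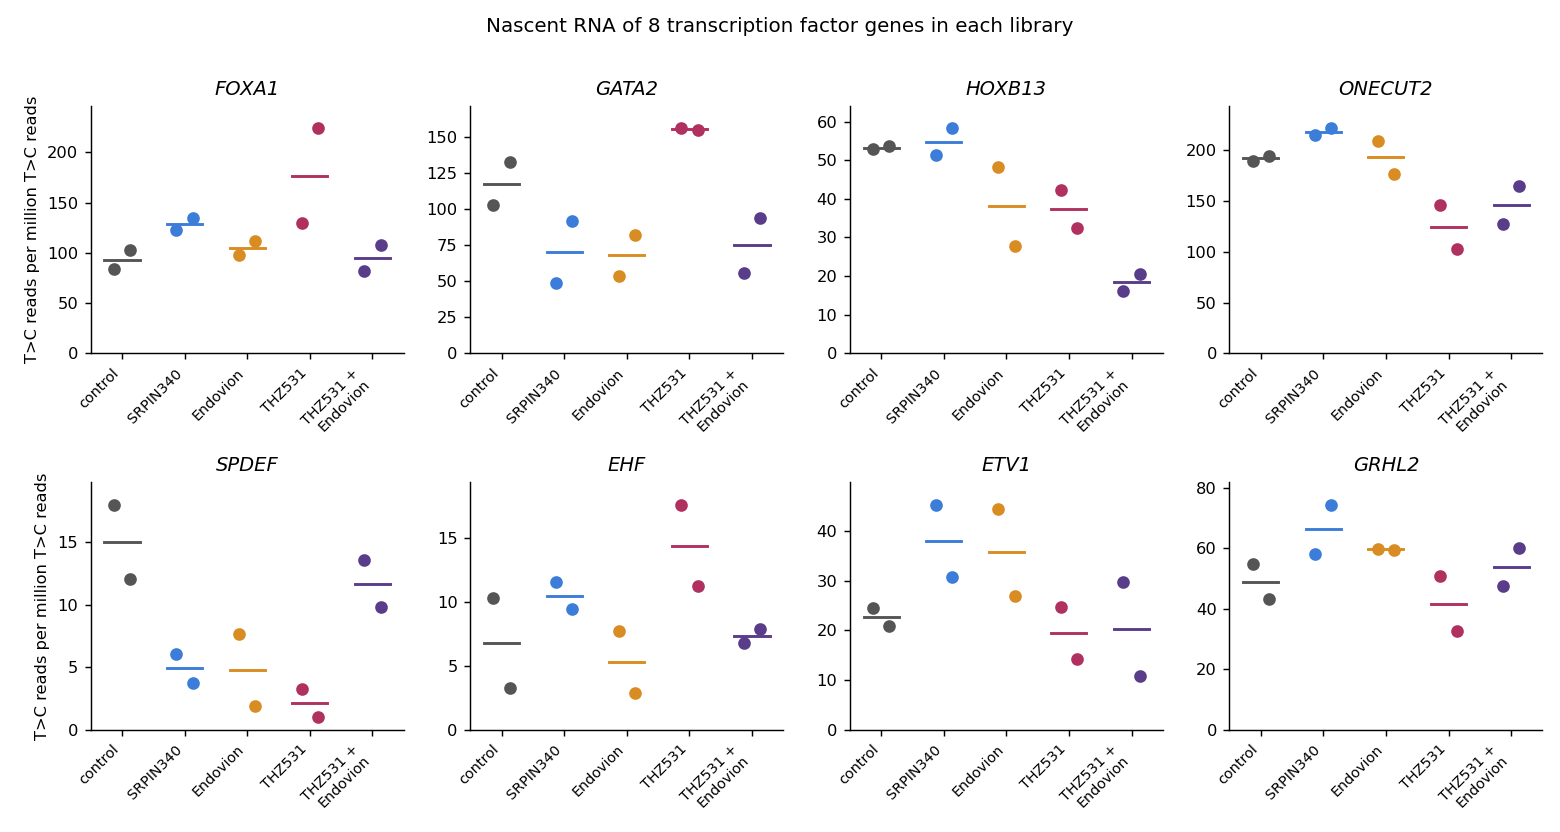
Nascent RNA in T>C CPM (y axis, from 0) for each of 8 factors in the 5 groups (x axis); points are libraries and bars are the mean of 2. FOXA1 with THZ531 shows 1 library at 129.5 and 1 at 224, while the 2 HOXB13 libraries of the combination, at 16.1 and 20.7, lie below all others.

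GATA2 encodes a zinc finger factor that binds early at many enhancers of luminal genes. It lies at chr3:128479427-128493201 on the minus strand (13.8 kb, 6 exons), and its kept interval had 1592 bp. In nascent RNA, GATA2 was at 102 and 132 T>C CPM in control, 48.7 and 91.4 with SRPIN340, 53.7 and 81.8 with Endovion, 156 and 155 with THZ531 and 55.9 and 93.5 with the combination. The THZ531 libraries lay above both control libraries, and those of the 3 other treatments all lay below both.

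None of these differences passed the adjusted test. The log2 values were -0.74 ± 0.27 with SRPIN340 (adjusted p = 0.22), -0.80 ± 0.27 with Endovion (adjusted p = 0.11), 0.41 ± 0.26 with THZ531 (adjusted p = 0.38) and -0.66 ± 0.27 with the combination (adjusted p = 0.13). Total GATA2 RNA had the same layout with THZ531, at 92.3 and 106 CPM against 71.4 and 68.6 in control, and with Endovion, at 45.3 and 50.8. SRPIN340, at 52.3 and 70.7 CPM, overlapped control, and the combination libraries, at 40.7 and 64.6, lay below it. The total RNA values of 0.50 ± 0.20 with THZ531 (adjusted p = 0.070) and -0.54 ± 0.20 with Endovion (adjusted p = 0.094) missed the threshold, and that of the combination was -0.41 ± 0.20 (adjusted p = 0.14). With DESeq2 the THZ531 and Endovion values passed (adjusted p = 0.039 and 0.026), as they did with the 2 groups fitted alone (0.039 and 0.014) and, together with that of the combination, without a filter on low counts (0.0037, 0.00074 and 0.010). In edgeR the THZ531 value passed without SRPIN340 replicate 1 (adjusted p = 0.047) or 2 (0.046) or combination replicate 1 (0.029) or 2 (0.019), within a range of 0.019 to 0.38. The Endovion value passed without combination replicate 1 (0.019) or 2 (0.034), within 0.019 to 0.37, and the combination value without combination replicate 2 (-0.78, adjusted p = 0.011), within 0.011 to 0.53.

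GATA2 was the factor for which the combination and THZ531 alone lay farthest apart relative to their error. The combination was lower by 1.06 ± 0.27 in nascent RNA on the log2 scale (a 2.09-fold difference, adjusted p = 0.064) and by 0.92 ± 0.20 in total RNA (1.89-fold, adjusted p = 0.067). No library of one group reached those of the other. The nascent difference passed in 5 of the 10 fits that left out 1 library, without control replicate 1 or 2, SRPIN340 replicate 1 or 2, or combination replicate 2, with adjusted p-values of 0.040, 0.040, 0.029, 0.031 and 0.035. Over all 10 such fits the adjusted p ran from 0.029 to 0.78. The total RNA difference passed without SRPIN340 replicate 1 or 2 (adjusted p = 0.045 and 0.041) or combination replicate 2 (0.0050), within 0.0050 to 0.39.

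The GATA2 interval has an inner part of 873 bp, which is also listed as the 3′ end of a second transcript, and a distal part of 719 bp. Over all libraries 12.03% of 5260 reads in the inner part carried T>C, against 5.68% of 10853 reads in the distal part. The inner part had the higher share in 10 of 10 libraries, with 7.71% to 16.7% against 2.74% to 8.47%. The inner part is poorer in T (20.8% of its bases, against 25.3% of the whole interval). The whole includes the inner part, so the distal part is richer in T than 25.3%. The distal part held 59.8% to 76.5% of the reads, and control, at 67.9% and 61.6%, lay within that range.

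HOXB13 encodes a homeobox factor that marks the prostate and works with FOXA1. The gene is at chr17:48724763-48728750 on the minus strand (3.99 kb, 2 exons) and was counted in 1 interval of 2027 bp. Total HOXB13 RNA was at 111 and 109 CPM in control, 94.4 and 84.6 with SRPIN340, 82.0 and 67.8 with Endovion, 64.3 and 50.0 with THZ531 and 46.7 and 45.6 with the combination. Each group lay wholly below the one named before it, so that no pair of neighbours in this order overlapped, and the values of control and combination were tight.

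Against control, total HOXB13 fell by 0.55 ± 0.14 on the log2 scale with Endovion (adjusted p = 0.020), by 0.94 ± 0.14 with THZ531 (adjusted p = 0.00019) and by 1.25 ± 0.14 with the combination (adjusted p = 3.3e-05). With SRPIN340 the value was -0.29 ± 0.14 (adjusted p = 0.26). The calls with THZ531 and the combination held in 10 of 10 fits that left out 1 library and in 6 of 6 other alternatives. The Endovion call was lost without control replicate 2 (adjusted p = 0.074), Endovion replicate 1 (0.051) or Endovion replicate 2 (0.18), within a range of 0.0048 to 0.18. Compared with Endovion alone, the combination was lower by 0.70 ± 0.14 (adjusted p = 0.0053), a call lost without Endovion replicate 1 (log2 -0.56, adjusted p = 0.094), and compared with THZ531 alone it was lower by 0.31 ± 0.14 (adjusted p = 0.42).

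**Figure D3:**
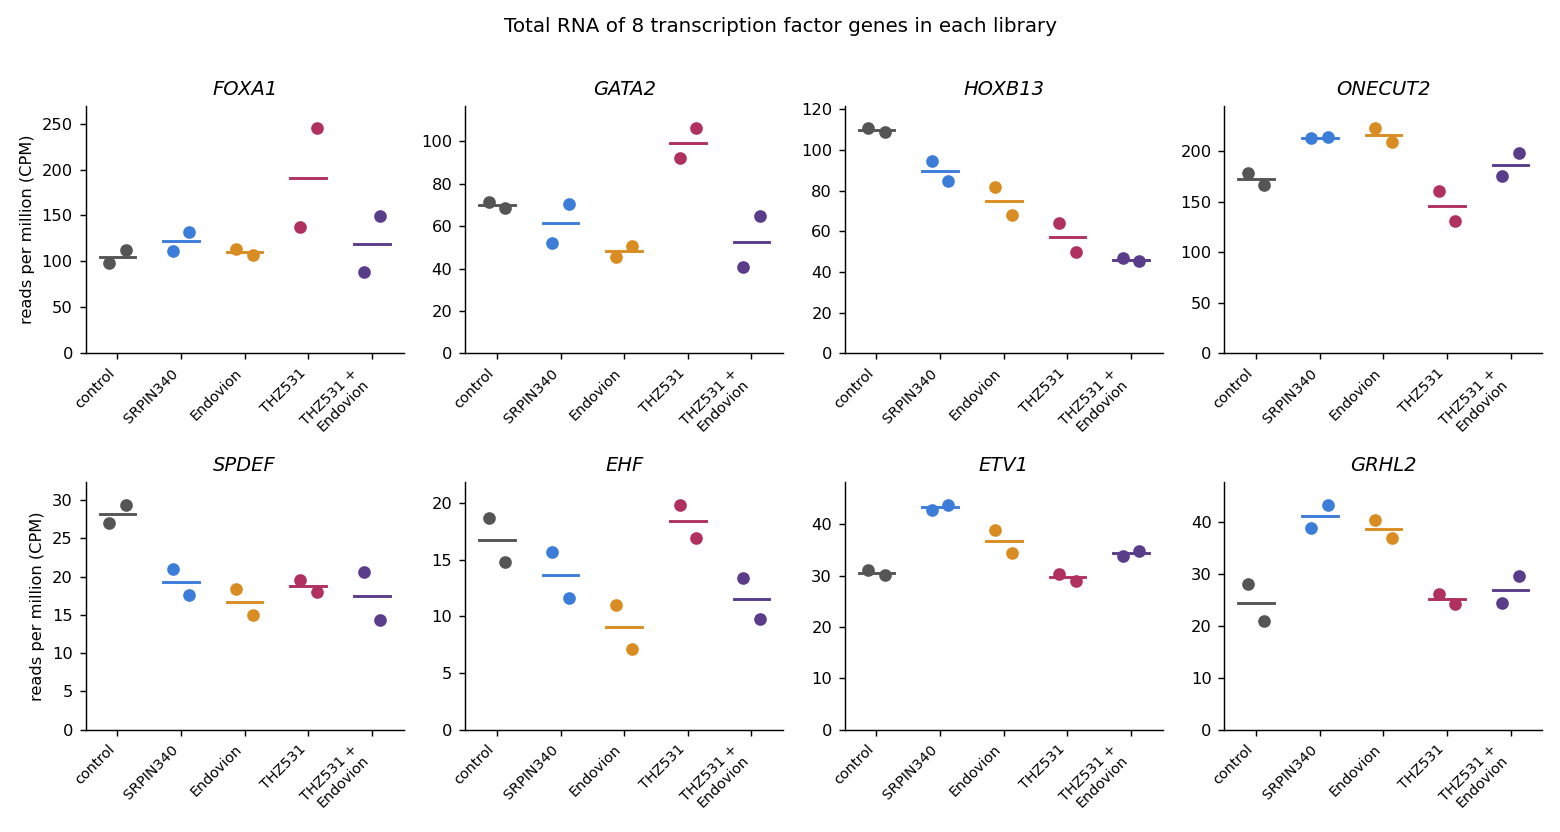
Total RNA in CPM (y axis, from 0) for each of 8 factors in the 5 groups (x axis); points are libraries and bars are the mean of 2. HOXB13 steps down from 111 and 109 in control to 46.7 and 45.6 with the combination, and GRHL2 is highest with SRPIN340 and Endovion.

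Newly made HOXB13 RNA did not follow the same steps. It was at 52.8 and 53.8 T>C CPM in control, 51.4 and 58.2 with SRPIN340, 48.3 and 27.9 with Endovion, 42.3 and 32.5 with THZ531 and 16.1 and 20.7 with the combination, where 19 and 21 T>C reads were counted. SRPIN340 overlapped control, and the other treatments lay below it, the combination farthest. The combination fell by 1.54 ± 0.38 (adjusted p = 0.0050), whereas THZ531 alone gave -0.49 ± 0.34 (adjusted p = 0.44) and Endovion alone -0.47 ± 0.34 (adjusted p = 0.59). Without combination replicate 1 the call was lost (log2 -1.36, adjusted p = 0.11), within a range of 0.0045 to 0.11, and with overlapping intervals summed as they stand the adjusted p was 0.069.

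The differences of the combination from the single drugs were -1.04 ± 0.39 against THZ531 (adjusted p = 0.40) and -1.07 ± 0.39 against Endovion (adjusted p = 0.22), and the interaction of THZ531 and Endovion was -0.58 ± 0.52 (adjusted p = 0.86). A larger fall with the combination than the drugs give when added was therefore not shown. The labelled share of HOXB13 was 2.64% and 2.59% in control, 3.73% and 3.43% with THZ531 and 1.78% and 2.41% with the combination. Both THZ531 libraries were above control and both combination libraries below it, with log2 changes of the odds of 0.48 ± 0.28 (adjusted p = 0.62) and -0.34 ± 0.31 (adjusted p = 0.70).

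ONECUT2 encodes a cut homeobox factor that has been linked to advanced prostate cancer. The gene spans 55.9 kb of chromosome 18 in 2 exons (chr18:57435374-57491298, plus strand), and its counted interval is the longest of the set, at 14574 bp. In nascent RNA it was at 189.9 and 194 T>C CPM in control, 215 and 222 with SRPIN340, 209 and 177 with Endovion, 146 and 103 with THZ531 and 128 and 165 with the combination. Both THZ531 and both combination libraries lay below control, and both SRPIN340 libraries lay above it.

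The fall with THZ531 was 0.61 ± 0.20 (adjusted p = 0.046). It was the least stable call of the set, kept in 3 of 10 fits that left out 1 library (adjusted p 0.024 to 0.47) and in 2 of 7 other alternatives (0.038 to 0.19). It was lost without either control library (0.11 and 0.15), either SRPIN340 library (0.058 and 0.057), either Endovion library (0.055 and 0.051) or THZ531 replicate 2 (0.47). With the combination the value was -0.39 ± 0.20 (adjusted p = 0.24). Total ONECUT2 RNA was at 178 and 167 CPM in control, 161 and 131 with THZ531, 175 and 198 with the combination, 223 and 209 with Endovion and 213 and 214 with SRPIN340. Both THZ531 libraries lay below control and both Endovion and SRPIN340 libraries above it, but 0 of 4 comparisons passed (0.31 ± 0.12 with SRPIN340, 0.32 ± 0.12 with Endovion, -0.24 ± 0.12 with THZ531 and 0.11 ± 0.12 with the combination). The THZ531 value passed without THZ531 replicate 1 (-0.45, adjusted p = 0.021), the lowest of these fits.

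The labelled share of ONECUT2 was lower in each treated library than in each control library. It was 5.89% and 6.10% in control, 5.58% and 5.25% with SRPIN340, 4.69% and 4.36% with Endovion, 5.14% and 4.14% with THZ531 and 3.78% and 4.43% with the combination. The log2 change of the odds was -0.43 ± 0.17 with Endovion (adjusted p = 0.35), -0.38 ± 0.18 with THZ531 (adjusted p = 0.50) and -0.58 ± 0.18 with the combination (adjusted p = 0.13), so none passed. The odds over all genes had medians of -0.19, -0.09 and -0.16 in the same comparisons. For all genes together the share was also lower in each treated library (5.04% to 5.632%) than in control (5.695% and 5.634%), so this order was not particular to ONECUT2.

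**Figure D4:**
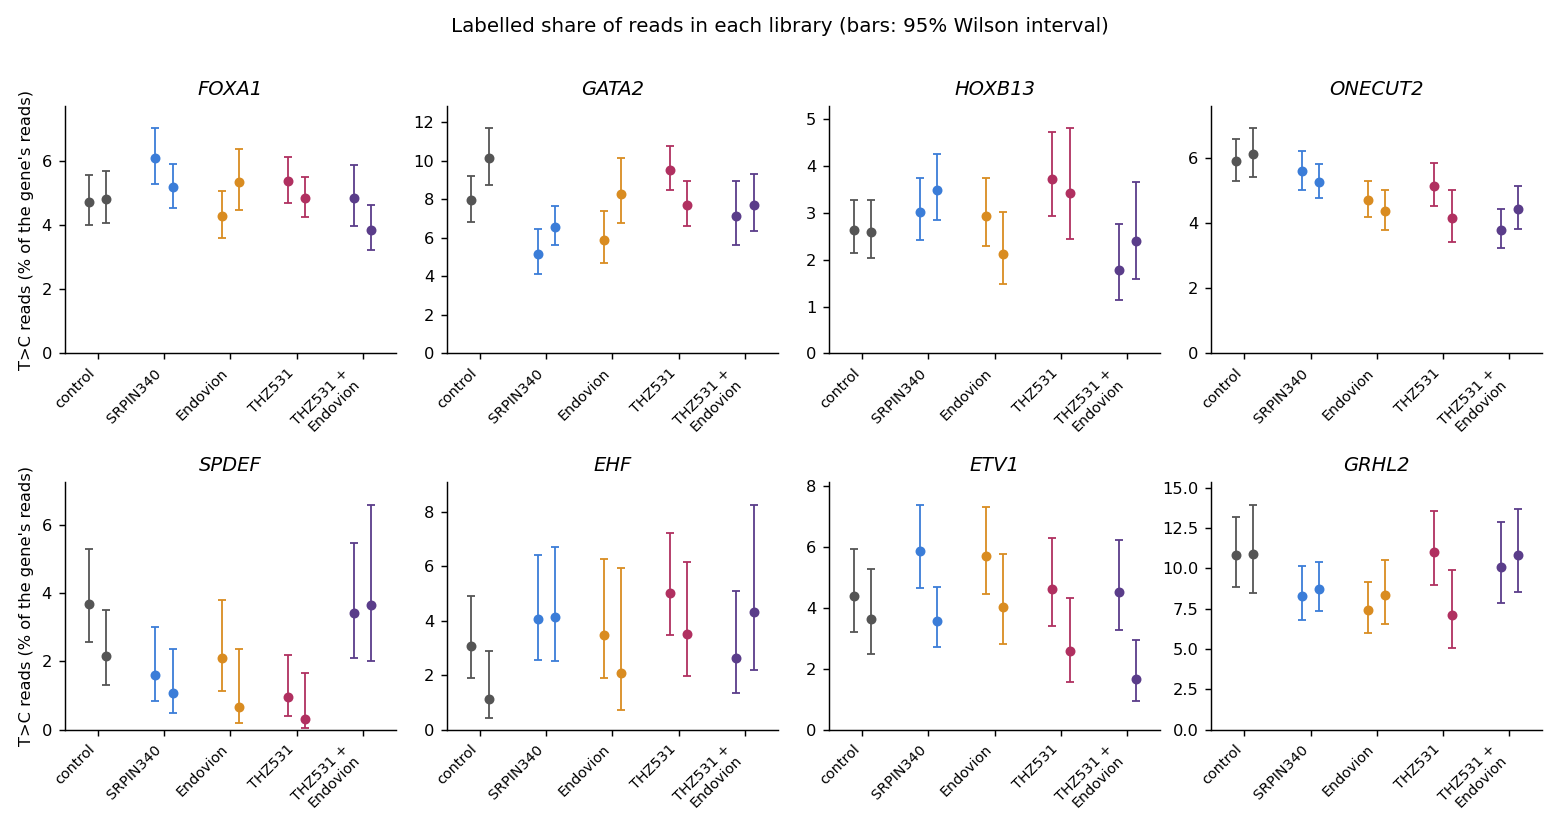
Percentage of a gene's reads that carry T>C (y axis, from 0, with 95% Wilson intervals that cover counting error only) for each of 8 factors in the 5 groups (x axis); each point is a library. For ONECUT2 every treated library lies below the control libraries at 5.89% and 6.10%, and for SPDEF with THZ531 the points stand on 5 and 1 T>C reads. For all genes together (not drawn) every treated library also lies below control.

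SPDEF encodes the prostate-derived ETS factor, a mark of secretory luminal cells. It lies at chr6:34537802-34556333 on the minus strand (18.5 kb, 6 exons) and had the shortest counted interval, at 472 bp with 78 T, which limits how often label can be seen there. Its promoter is shown because its total RNA fell in 3 of the 4 comparisons. The 250 bases before the RefSeq start (GRCh38.p14, chr6:34556330-34556579, minus strand, printed 5′ to 3′) follow, with the CCAAT match in capitals.

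SPDEF: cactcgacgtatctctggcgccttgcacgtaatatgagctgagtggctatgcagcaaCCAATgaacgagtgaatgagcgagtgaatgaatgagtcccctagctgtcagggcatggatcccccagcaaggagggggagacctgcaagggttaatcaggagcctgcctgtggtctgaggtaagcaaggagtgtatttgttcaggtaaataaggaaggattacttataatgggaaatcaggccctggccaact

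Unlike the FOXA1 window, this one is of middling composition, with 50.8% G and C and 6 CG pairs. Of the strings searched, CCAAT alone was found, at base 58 on the strand printed. Among the factors with a promoter sequence, CCAAT was also found in EHF, ETV1 and GATA2, and the ETS string in 0 of the 6 genes.

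Total SPDEF RNA was at 27.1 and 29.4 CPM in control, 21.02 and 17.6 with SRPIN340, 18.3 and 15.0 with Endovion, 19.6 and 17.96 with THZ531 and 20.6 and 14.3 with the combination. All treated libraries lay below both control libraries, and the treated groups overlapped one another. SPDEF fell by 0.76 ± 0.19 with Endovion (adjusted p = 0.018), by 0.59 ± 0.19 with THZ531 (adjusted p = 0.025) and by 0.69 ± 0.19 with the combination (adjusted p = 0.012), and the value with SRPIN340 was -0.55 ± 0.18 (adjusted p = 0.12), which passed without a filter on low counts (-0.59, adjusted p = 0.022). Leaving out control replicate 2 ended all 3 calls (adjusted p = 0.11, 0.094 and 0.055), and so did leaving out Endovion replicate 1 or 2 (0.061 and 0.16), THZ531 replicate 2 (0.11) and combination replicate 2 (0.14) in their own comparisons. The lowest adjusted p-values in such fits were 0.0092, 0.010 and 0.0053.

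Labelled SPDEF reads were few. The counts were 28 and 15 T>C reads in control, 9 and 6 in SRPIN340, 10 and 2 in Endovion, 5 and 1 in THZ531 and 16 and 10 in the combination. Scaled, this was 18.02 and 12.04 T>C CPM in control, 6.09 and 3.76 with SRPIN340, 7.67 and 1.92 with Endovion, 3.25 and 1.02 with THZ531 and 13.6 and 9.84 with the combination. Counts with each single drug were below control and those of the combination overlapped it on the CPM scale. The log2 value with THZ531 was -2.67 ± 0.91 (adjusted p = 0.060), and with the combination -0.36 ± 0.77 (adjusted p = 0.84). The labelled share with THZ531, 0.942% and 0.299% against 3.69% and 2.15% in control, had 95% Wilson intervals of 0.403% to 2.19% and 0.0527% to 1.67%. Its log2 change of the odds was -2.08 ± 0.68 (adjusted p = 0.29).

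EHF encodes an ETS factor of epithelial cells. The gene spans 42.2 kb on chromosome 11 (chr11:34621093-34663288, plus strand, 9 exons). Its main counted interval ends at base 34661057, short of the 3′ end of that span, and reads beyond it were not counted. Total EHF RNA was at 18.6 and 14.8 CPM in control, 15.7 and 11.6 with SRPIN340, 11.02 and 7.12 with Endovion, 19.8 and 16.9 with THZ531 and 13.4 and 9.73 with the combination. The Endovion and combination libraries lay below both control libraries, and those of SRPIN340 and THZ531 overlapped control.

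EHF fell by 0.88 ± 0.24 with Endovion (adjusted p = 0.029). The call was lost without control replicate 1 (log2 -0.70, adjusted p = 0.10), control replicate 2 (-1.08, 0.065) or Endovion replicate 2 (-0.60, 0.24), within a range of 0.019 to 0.24. With the combination the value was -0.53 ± 0.24 (adjusted p = 0.11), and it passed without a filter on low counts (-0.56, adjusted p = 0.033). T>C reads of EHF numbered 3 to 27 in a library, and the nascent log2 values, from -0.35 ± 0.81 with Endovion to 1.07 ± 0.74 with THZ531, had errors too large for a call.

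The T>C reads of EHF were spread unevenly along the gene. In the last 538 bp of its main interval 26 of 43 reads over all libraries carried T>C (60.5%), against 93 of 3287 reads (2.83%) in the 1588 bp before it. The control libraries had 6 of 6 and 0 of 2 T>C reads there. Whether the T>C reads of this stretch come from label was not tested. With this stretch left out, an alternative chosen after the data were seen, no call of EHF changed.

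ETV1 encodes an ETS factor of the PEA3 group that is activated by gene fusions in some prostate cancers. It lies at chr7:13891229-13991425 on the minus strand and spans 100.2 kb with 14 exons. Total ETV1 RNA was at 31.0 and 30.1 CPM in control, 42.7 and 43.8 with SRPIN340, 38.9 and 34.4 with Endovion, 30.3 and 29.0 with THZ531 and 33.9 and 34.7 with the combination. The SRPIN340 libraries were the highest and close together, those of Endovion and the combination lay above control, and those of THZ531 overlapped it. The SRPIN340 value of 0.50 ± 0.13 came close to the threshold (adjusted p = 0.055, 95% interval 0.23 to 0.78) and passed with DESeq2 (0.48, adjusted p = 0.020).

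Nascent ETV1 RNA was at 24.5 and 20.9 T>C CPM in control, 45.3 and 30.7 with SRPIN340, 44.5 and 26.9 with Endovion, 24.7 and 14.2 with THZ531 and 29.6 and 10.8 with the combination. Both SRPIN340 and both Endovion libraries lay above control, with log2 values of 0.74 ± 0.42 (adjusted p = 0.58) and 0.66 ± 0.43 (adjusted p = 0.52), and the libraries of the last 2 groups lay on both sides of it.

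The reads of ETV1 lay in 2 parts of its 3′ end. The interval of 4638 bp holds a distal part of 2927 bp beyond the end of a shorter listed transcript. That part took 23.2% and 22.8% of the reads in control, 24.2% and 26.4% with SRPIN340, 29.8% and 28.0% with Endovion, 30.0% and 38.0% with THZ531 and 36.4% and 30.0% with the combination. Each treated library lay above both control libraries. The 4 libraries with THZ531, alone or in the combination, were the highest, but combination replicate 2 (29.97%) barely exceeded Endovion replicate 1 (29.76%). The opposite end of the interval, its innermost 1485 bp, also took a larger part of the reads in each treated library. It held 54 of 870 and 33 of 715 reads in control, 113 of 1143 and 185 of 1379 with SRPIN340, and 164 of 1018 and 106 of 696 with Endovion. With THZ531 it held 94 of 823 and 128 of 540, and with the combination 153 of 773 and 94 of 664. A shift to a longer 3′ end was not tested. These shares were picked out after their values were seen, so they are given as a description, and no test of them was run.

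**Figure D5:**
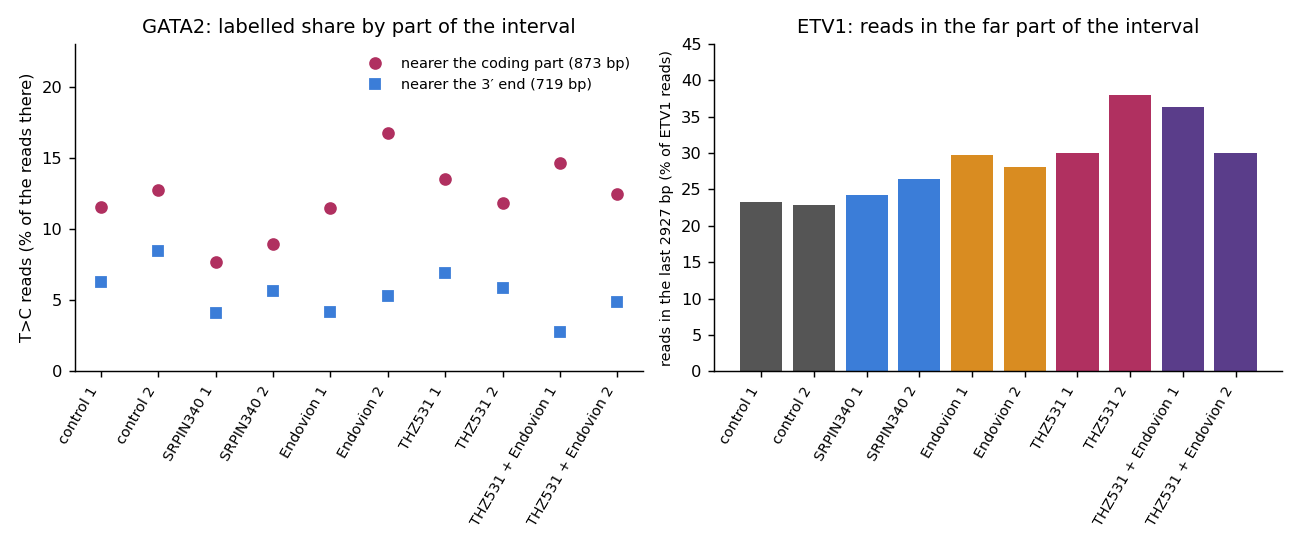
Left, percentage of reads with T>C (y axis) in the inner 873 bp and distal 719 bp of the GATA2 interval in each of 10 libraries (x axis). Right, percentage of ETV1 reads (y axis) that lie in its distal 2927 bp in each library. The inner GATA2 part is higher in 10 of 10 libraries, and the ETV1 share is lowest in the control libraries, at 23.2% and 22.8%.

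GRHL2 encodes a grainyhead factor that keeps genes of cell junctions active in epithelia. It is the longest gene of the set, spanning 177 kb on chromosome 8 with 16 exons, and its counted interval had 3023 bp. Total GRHL2 RNA was at 28.0 and 20.9 CPM in control, 38.7 and 43.3 with SRPIN340, 40.3 and 36.8 with Endovion, 26.1 and 24.1 with THZ531 and 24.3 and 29.5 with the combination. All SRPIN340 and Endovion libraries lay above control, and those of THZ531 and the combination overlapped it.

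GRHL2 rose by 0.75 ± 0.16 with SRPIN340 (adjusted p = 0.035) and by 0.66 ± 0.16 with Endovion (adjusted p = 0.018). The values with THZ531 and the combination were 0.04 ± 0.16 (adjusted p = 0.89) and 0.14 ± 0.16 (adjusted p = 0.57). The difference of the combination from Endovion alone was -0.52 ± 0.16 (adjusted p = 0.062), and it passed without control replicate 1 or 2 (adjusted p = 0.033 and 0.031). The control libraries differed by more than those of any treated group, and without control replicate 2 the changes were 0.51 (adjusted p = 0.44) and 0.41 (adjusted p = 0.26).

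The Endovion call also ended without Endovion replicate 1 (adjusted p = 0.13) or 2 (0.068), within a range of 0.0035 to 0.26. The SRPIN340 call also ended without SRPIN340 replicate 1 (0.052) or 2 (0.28) and without Endovion replicate 1 (0.058) or 2 (0.057), within a range of 0.0030 to 0.44, when overlapping intervals were summed as they stand (0.072) and when the 2 groups were fitted alone (0.14). Nascent GRHL2 RNA was at 54.7 and 43.3 T>C CPM in control, 58.2 and 74.5 with SRPIN340 and 59.9 and 59.6 with Endovion, with log2 values of 0.43 ± 0.30 (adjusted p = 0.67) and 0.28 ± 0.31 (adjusted p = 0.75). Its labelled share was lower in these groups, at 8.30% and 8.74% with SRPIN340 and 7.41% and 8.32% with Endovion against 10.8% and 10.9% in control, but the change of the odds passed in neither (adjusted p = 0.79 and 0.60).

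The labelled share passed the test for 0 of the 8 factors with each treatment, where 0.0603% (SRPIN340), 0.271% (Endovion), 0.0905% (THZ531) and 0.804% (combination) of all genes were called. At an unadjusted p under 0.05 the counts were 1 (GATA2), 1 (ONECUT2), 2 (ONECUT2 and SPDEF) and 1 (ONECUT2), against 8.04%, 11.2%, 9.85% and 12.7% of all genes. To set labelling side by side between genes of unlike T content, conversions were counted per 1000 covered T positions, which gave 2.11 to 2.50 for all genes together. GRHL2 lay above this in 10 of 10 libraries (2.70 to 4.84, median 3.83), FOXA1 (2.13 to 3.93) and GATA2 (2.05 to 6.11) had medians of 3.13 and 3.36, and HOXB13 (1.01 to 3.19), ETV1 (0.777 to 3.68) and SPDEF (0.219 to 2.65) had lower medians, of 1.68 for HOXB13 and 1.34 for SPDEF. ONECUT2 (1.80 to 4.32) had a median of 2.71. EHF (1.53 to 6.05) had a median of 2.79, but its conversions, 6 to 20 in a library, were fewer than its T>C reads in 6 of 10 libraries, so its rate is uncertain.

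When the combination was set against THZ531 alone, 0 of 8 factors were called in nascent RNA (0.322% of all genes) and 0 of 8 in total RNA (0.511%). At an unadjusted p under 0.05, 4 of 8 factors passed in nascent RNA, where 7.8% of all genes did. Of these, FOXA1 (-0.88 ± 0.24, adjusted p = 0.097), GATA2 and HOXB13 were lower and SPDEF (2.31 ± 0.93, adjusted p = 0.47) was higher in the combination. Without THZ531 replicate 1 the FOXA1 difference passed (-1.24, adjusted p = 0.018). In total RNA 4 factors passed at an unadjusted p under 0.05, where 11% of all genes did, and DESeq2 called 1, GATA2. Against Endovion alone, 0 of 8 were called in nascent RNA (1.31%), where 2 passed at an unadjusted p under 0.05 (10.9% of all genes), and 1 of 8, HOXB13, in total RNA (8.21%). The interaction of THZ531 and Endovion, which asks whether the combination differs from the sum of the single effects, was called for 0 of 8 factors in nascent (0.302%) and in total RNA (0.00681%), and DESeq2 called 0 in both. Its unadjusted p was under 0.05 for 7.7% of all genes in nascent and 13% in total RNA. Among the factors this held for FOXA1 (-1.05 ± 0.34, adjusted p = 0.24) and SPDEF (3.90 ± 1.25, adjusted p = 0.24) in nascent RNA and for SPDEF (0.66 ± 0.27, adjusted p = 0.33) and GRHL2 (-0.56 ± 0.23, adjusted p = 0.34) in total RNA. FOXA1 passed in nascent RNA without THZ531 replicate 1 (-1.40, adjusted p = 0.034).

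For comparison, 80 other transcription factors of the same families or of the prostate and its alternative lineages were listed by name. In nascent RNA 59 of them were tested, and the numbers that rose and fell were 0 and 1 with SRPIN340 (SOX4, -0.69), 0 and 1 with Endovion (CREB3L4, -0.59), 2 and 6 with THZ531 and 3 and 4 with the combination, where 1.04%, 2.66%, 7.46% and 8.1% of all genes were called. The list's median log2 values in these comparisons were 0.10, 0.04, 0.21 and 0.00. With THZ531, HOXB6 (2.15) and HOXA9 (1.05), homeobox factors of the same family as HOXB13, rose, and the luminal CREB3L4 (-0.85) and the T-box factor TBX3 (-0.74) fell. With the combination HOXA9 rose (2.60-fold), while CREB3L4 (-1.23) and TBX3 (-0.74) fell. All of these had adjusted p-values between 2.8e-07 and 0.024.

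In total RNA 65 of the 80 were tested, and 2 rose and 0 fell with SRPIN340, 10 and 9 with Endovion, 20 and 11 with THZ531 and 20 and 14 with the combination, where 1.96%, 11.4%, 30.7% and 29% of all genes were called. The Krüppel-like factor KLF4 rose with SRPIN340 (1.54), Endovion (1.53), THZ531 (2.11) and the combination (1.58), and the glucocorticoid receptor gene NR3C1 with SRPIN340 (0.56), THZ531 (0.62) and the combination (0.60). The epithelial ETS factor ELF3 (-0.79), the corepressor TLE3 (-0.69) and TRPS1 (-0.57) fell with Endovion. With the combination HOXB6 rose (1.98) and CREB3L4 (-1.02) and TBX3 (-0.85) fell. All 15 genes listed as luminal factors and their partners were tested. With THZ531 2 rose and 5 fell (median -0.50), and with the combination 2 rose and 8 fell (median -0.32). Over the 14689 genes tested, 2438 rose and 2071 fell with THZ531, and 2438 rose and 1821 fell with the combination (30.7% and 29% called). Of the other groups with THZ531, 13 ETS factors had 5 up and 1 down, 12 HOX factors 4 and 2 and 6 forkhead factors 2 and 0. The 2 grainyhead factors had 2 up and 0 down, and 4 cut factors had 0 and 2. The 6 epithelial and basal factors had 2 and 0, 4 factors of alternative lineages 2 and 1 and 3 GATA factors 1 and 0. The labelled share was called for 0 of the listed genes in each comparison.

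The gene with the nascent pattern most like that of each factor, by Pearson's r of log2 T>C CPM over the 10 libraries among 2314 or 2315 genes with enough T>C reads, was SOX9 for GATA2 (r = 0.97), BAG1 for HOXB13 (0.95), MED13 for ONECUT2 (0.93), CENPF for GRHL2 (0.91), FTL for SPDEF (0.90), ITGB5 for ETV1 (0.87), NDFIP2 for FOXA1 (0.87) and EPS8 for EHF (0.87). SOX9, itself a factor of epithelial progenitors, is on the list of other factors. These values describe the best of many genes over libraries that share groups, and no test was made of them.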

How the data were processed

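Single-end 3′ end sequencing libraries (QuantSeq, with molecular identifiers) of 22RV1 RNA were mapped to hg38 and their T>C conversions counted with SLAM-DUNK by the authors. The deposited tables hold raw counts per 3′ UTR interval (of reads and T>C reads, and of conversions and the T positions that reads covered), without normalization. The deposited conversion rate, a fraction, and a deposited CPM column, a score here, were not used. The submitters' processing notes name Bowtie2 2.3.4.1, SAMtools 1.6 and DESeq2 1.38.2. The version of SLAM-DUNK, the conversions a read needed and whether counts were reduced by molecular identifiers are not given in the sources used here, so intervals cover counting error only.

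Of 104653 intervals per table, 92826 matched a transcript of GENCODE v44. Where intervals of a gene overlapped, the best covered was kept, leaving 57382 intervals of 31015 genes, and 3.53% of T>C reads were left unmatched. T content equalled hg38 in 23 of 23 intervals of the 8 factors. No interval of another gene overlapped theirs on either strand.

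Both T>C reads and all reads went into edgeR's test (version 4.0.16, under R 4.3.3, with TMM, filterByExpr, robust quasi-likelihood fit over 10 libraries, 5 residual degrees of freedom). CPM values are scaled by TMM factors. The labelled share was tested as the interaction of treatment and read class with each library blocked. Summed intervals, no filter, all-read scaling, 2 groups alone, the replicate block, DESeq2 1.42.0 and leaving out each library were alternatives. The procedure was tested on simulated data that gave every gene the same spread, so that test does not cover genes of unlike spread. Comparisons of the combination with single drugs in total RNA, and the interaction, were added after seeing the data. Libraries of a group differed by more than counting noise (chi-square per degree of freedom 3.54 to 4.89). Promoters of 6 factors came from RefSeq (GRCh38.p14).

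The 8 factors, the list of 80 other factors and the tests were chosen with earlier results of these data known. All 8 factors are named. Of the 80, up to 4 called genes with the smallest p were named per comparison, beside cell type markers and, per factor, the gene most alike (mean of at least 100 T>C reads, pseudocount 0.5 CPM). A few genes named by this rule are not reported here.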

Additional observations from a re-analysis of the deposited data

How the results depend on the processing

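Over 2297 values of single factors in all alternatives, 2210 kept their direction where called and their side of the threshold. Of the rest, 42 lost a call, 45 gained one and 0 reversed. Most of the 2297 values belong to comparisons in which the factor was not called as reported, where no call could be lost. The 2210 are therefore no measure of how stable the calls are. The labelled share had no call to lose, and all its 452 values kept their side of the threshold. Counts of factors called that moved by over 1.5 times were these, and the cause was not tested. With overlapping intervals summed, the count was 0 for THZ531 and 0 for the combination in nascent RNA (2 and 1 as reported) and 0 for SRPIN340 in total RNA (1). For THZ531 in nascent RNA it was 1 (FOXA1) without a filter, with DESeq2, with the 2 groups alone and with scaling by all reads. For SRPIN340 in total RNA it was 2 without a filter, 2 with DESeq2 and 0 with the 2 groups alone. Without a filter the combination had 4 in total RNA (2), and the combination against Endovion had 2 there, as with the 2 groups alone (1). By less, the count for Endovion in total RNA was 5 (GATA2 gained; 4 as reported) and that for THZ531 was 3 (GATA2 gained; 2 as reported) without a filter, with DESeq2 and with the 2 groups alone. The combination against THZ531 (0 as reported) had 1, GATA2, in nascent RNA without a filter and with scaling by all reads, and in total RNA without a filter and with DESeq2.

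Replicate numbers did not pair the libraries: deviations of same-numbered libraries correlated at -0.067 to 0.058 over 10 pairs of groups. With the replicate block the counts were 1 (GATA2) for the combination against THZ531 in nascent and 1 in total RNA, 0 for SRPIN340 (GRHL2 lost, adjusted p = 0.057), 5 for Endovion (GATA2 gained, 0.039), 4 for THZ531 (FOXA1 and GATA2 gained, 0.021 and 0.028) and 4 for the combination (GATA2 and EHF gained, 0.045 and 0.031) in total RNA. It changed no other call.

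Leaving out 1 library at a time gave, in nascent RNA, 0 to 2 for THZ531 (0 without control replicate 1 or THZ531 replicate 2), 0 to 1 for the combination (0 without combination replicate 1), 0 to 1 for the combination against THZ531 and 0 to 1 for the interaction (1 without THZ531 replicate 1). In total RNA it gave 0 to 1 for SRPIN340, 0 to 5 for Endovion (5 without combination replicate 1 or 2, 0 without control replicate 2 or Endovion replicate 2, 1 without Endovion replicate 1), 1 to 4 for THZ531 (1 without control replicate 2 or THZ531 replicate 2, 4 without THZ531 replicate 1 or combination replicate 2), 1 to 2 for the combination (1 without control replicate 2), 0 to 1 for the combination against THZ531 and 0 to 2 for it against Endovion (0 without Endovion replicate 1). T>C reads limit SPDEF (1 to 28 in a library) and EHF (3 to 27), for which nascent changes of the size seen in other factors could not be called.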
